A study of Homo sapiens with 4 samples.

Results

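Among the m6A peaks of RPMI-8226 cells, 137 of the 12792 genes with a peak had 8 or more peaks in at least 1 of the 2 deposited peak lists. These genes were selected on their number of peaks, which is therefore a description and no finding, and all of their peaks in both lists are described here. They held 1235 of 24626 shALKBH5 peaks (5.02%) and 1196 of 22448 shNC peaks (5.33%), although they were 1.07% of the genes. RPMI-8226 is an established human multiple myeloma cell line, grown here in RPMI-1640 medium with FBS. The cells were transduced with lentivirus, carrying a short hairpin RNA against ALKBH5 in the shALKBH5 group and the hairpin named shNC in its control. Poly(A) RNA of each group gave 1 library enriched with an anti-m6A antibody (IP) and 1 input library, so there were 4 libraries and no replicates. No test between the groups was possible, and the depth of the libraries is unknown because the lists hold no read counts. The knockdown itself cannot be read from peak lists, and ALKBH5 had 3 peaks in each of them, all with a counterpart in the other. Of the 10 plasma and B cell markers looked up, 8 had a peak, against 1 of 8 T and NK cell, 2 of 6 myeloid and 1 of 6 stromal markers, and no marker was among the 137 genes. The labels do not say what the shNC hairpin targets, if anything.

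N6-methyladenosine (m6A) is a methyl mark on adenosines inside mRNAs and long noncoding RNAs. It is written by a METTL3-METTL14 complex, often at a GGAC core, read by YTH-domain proteins and removed by ALKBH5, an RNA demethylase. The mark is known to lie densely in long internal exons and near stop codons. In m6A-seq, RNA fragments are pulled down with an antibody, and a peak is a stretch of a transcript with more fragments after pull-down than in the input.

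The sequences below are windows of RefSeq (GRCh38.p14), reaching from 250 bases before to 50 bases after the start of an annotated gene, that lie wholly inside a peak of one of the 137 genes in both lists. They are shown because they let the GGAC core be seen inside a peak, in a long noncoding RNA and in 2 stretches that are open in a reading frame. Each sequence is headed by the gene of the peak. The PAX8-AS1 window is that of the start of PAX8-AS1 itself. The ARID1B window is that of the start of LOC115308161 and the ASXL3 window that of LOC124904347, not of ARID1B or ASXL3. Capitals mark GGAC on the strand of the gene of the peak.

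PAX8-AS1, chr2:113236019-113236318, plus strand: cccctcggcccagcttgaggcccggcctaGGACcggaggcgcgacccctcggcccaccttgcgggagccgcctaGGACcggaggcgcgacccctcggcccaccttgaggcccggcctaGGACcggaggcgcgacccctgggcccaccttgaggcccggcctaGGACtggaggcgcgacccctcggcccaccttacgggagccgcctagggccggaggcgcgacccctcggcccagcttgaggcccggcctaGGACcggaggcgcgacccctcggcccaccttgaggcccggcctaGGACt
ARID1B, chr6:156778469-156778768, plus strand: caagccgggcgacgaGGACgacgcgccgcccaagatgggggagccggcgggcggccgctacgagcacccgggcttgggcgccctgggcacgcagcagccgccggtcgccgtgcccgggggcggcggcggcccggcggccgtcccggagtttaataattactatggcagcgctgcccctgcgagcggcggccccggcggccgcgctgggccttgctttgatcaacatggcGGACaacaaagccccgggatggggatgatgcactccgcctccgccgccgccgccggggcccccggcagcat
ASXL3, chr18:33744012-33744311, plus strand: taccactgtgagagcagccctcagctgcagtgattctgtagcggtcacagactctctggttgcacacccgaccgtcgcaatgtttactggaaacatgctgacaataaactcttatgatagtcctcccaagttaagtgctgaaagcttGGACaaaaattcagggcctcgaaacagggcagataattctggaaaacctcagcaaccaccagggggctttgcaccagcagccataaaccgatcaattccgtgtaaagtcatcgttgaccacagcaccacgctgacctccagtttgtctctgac

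The PAX8-AS1 window, from a long noncoding RNA, is made of a repeated unit and holds GGAC 6 times and GGACT 2 times, and its most frequent 12-base word occurs 6 times. It lies in a peak at the start of PAX8-AS1 whose fold of IP over input was 12 for shALKBH5 and 5.98 for shNC in the authors' deposited table. The ARID1B window, from a gene encoding a subunit of the SWI/SNF chromatin remodeller, holds GGAC 2 times, and its peak had a fold of 17.6 for shALKBH5 and 14.2 for shNC in the authors' deposited table. The ASXL3 window, from a gene encoding a Polycomb-associated protein, holds GGAC 1 time, and its peak had a fold of 10.6 for shALKBH5 and 12.6 for shNC in the authors' deposited table. A GGAC was found in all 8 windows that lay inside a peak of the 137 genes in at least 1 list, 7 of which are distinct. It was also found in 66.3% of all 34943 RefSeq windows of this length. GGACT, counted separately although each GGACT also counts as GGAC, was in 4 of the 8 and in 25.2% of all windows. Both motifs were searched on the strand of the gene. The 102 windows wholly inside a peak of any gene were counted per gene, so a window inside peaks of several genes enters repeatedly. GGACT was found in 48 of these (47.1%) on the gene's strand and in 24 (23.5%) on the other strand. GGAC was found in 81 of these 102 windows (79.4%) on the gene's strand and in 61 (59.8%) on the other strand. The exact interval of the share of GGAC in the 8 windows, 63.1 to 100%, holds both this 79.4% and the 66.3% of all RefSeq windows. The 8 windows therefore do not set the 137 genes apart in GGAC. Peaks lying outside such windows could not be searched, since no genome sequence was used here.

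The number of peaks per gene was much alike in both lists. Of the 137 genes, 63 had more peaks for shALKBH5, 55 had more for shNC and 19 had equal numbers. The numbers differed by at most 2 peaks in 108 genes and by 4 or more in 6. In 76 genes the count reached 8 in both lists, in 32 for shALKBH5 alone and in 29 for shNC alone. At the edge of the selection, the 46 genes whose higher count was exactly 8 held 339 shALKBH5 and 322 shNC peaks. The 112 genes just outside, with a higher count of 7, held 710 shALKBH5 and 705 shNC peaks.

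**Figure D1:**
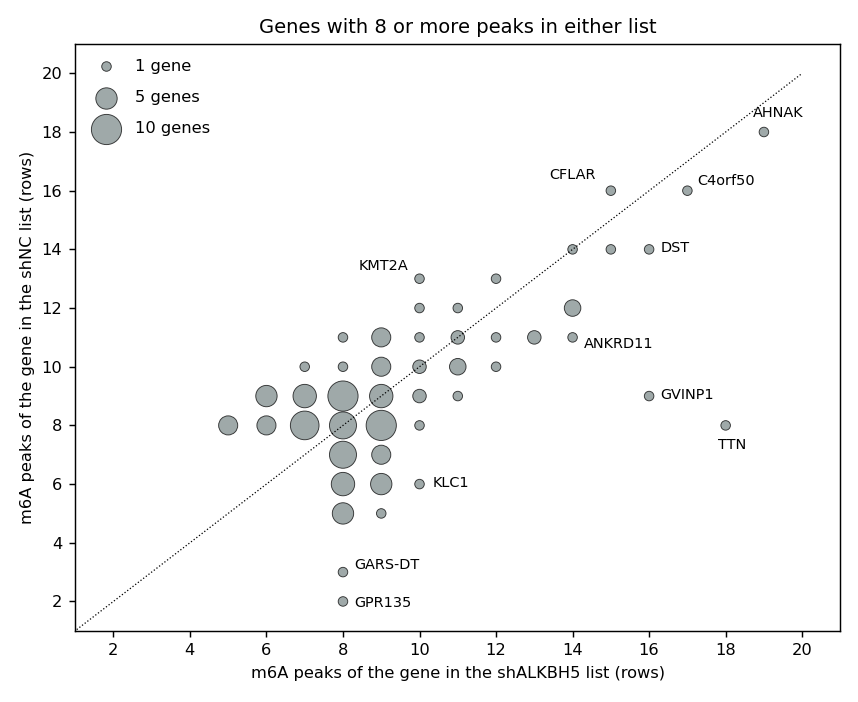
Number of peaks of each of the 137 genes in the shALKBH5 list (horizontal axis) and the shNC list (vertical axis). The area of a circle gives the number of genes at that pair of counts, and the dotted line marks equal counts. Most genes sit within 2 peaks of the line, while TTN (18 for shALKBH5, 8 for shNC), GVINP1 (16 for shALKBH5, 9 for shNC), GPR135 (8 for shALKBH5, 2 for shNC) and GARS-DT (8 for shALKBH5, 3 for shNC) lie far below it.

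AHNAK (ENSG00000124942, chromosome 11), the gene of a giant structural protein, led the set with 19 shALKBH5 and 18 shNC peaks. C4orf50, a protein-coding gene of no firmly known function, followed with 17 shALKBH5 and 16 shNC peaks. CFLAR, which encodes an inhibitor of caspase activation at death receptors, had 15 shALKBH5 and 16 shNC peaks. DST and MACF1, which encode giant linkers of actin filaments and microtubules, had 16 shALKBH5 and 14 shNC peaks (DST) and 14 in each list (MACF1). CENPF, a kinetochore protein gene, KMT2D, a histone methyltransferase gene, and SPEN, a transcriptional corepressor gene, each had 14 shALKBH5 and 12 shNC peaks. By RefSeq type, 126 of the genes code for proteins, 8 are long noncoding RNAs and 3 are transcribed pseudogenes. The genes spanned a median of 86.8 kb of genome, against 42.2 kb for genes with 4 to 7 peaks, 28.4 kb for genes with 2 to 3 and 23.0 kb for genes with 1 peak in their richer list. The range was wide, from 2.11 kb for MC1R to 1123 kb for RANBP2, and the length of the spliced transcripts was not measured here.

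The peaks of most of these genes were separate stretches, but not those of all. In the shALKBH5 list 71 of the 1235 peaks (5.75%) shared a base with another peak of the same gene, as did 60 of 1196 (5.02%) in the shNC list. The same share over the peaks of all other genes was 1.86% for shALKBH5 and 1.97% for shNC. Those include genes with a single peak in a list, which cannot share a base in this way. Overlapping peaks also add to the number on which the genes were chosen, so the difference is tied to the selection. Joining such peaks left 1197 stretches for shALKBH5 and 1164 for shNC, and 129 genes still had 8 or more stretches in a list. The 8 that did not were CENPBD1, GPR135, MC1R, NEAT1, SAMD9L, TMEM184A, TRIM52 and ZNF407. CENPBD1, a transcribed pseudogene, had 9 peaks but 3 stretches in each list. NEAT1, the long noncoding RNA that builds nuclear paraspeckles, had 8 peaks but 4 stretches in each list.

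Neighbouring stretches of these genes lay close together along the genome. The median gap was 568 bp for shALKBH5 and 539 bp for shNC, against 778 bp for shALKBH5 and 804 bp for shNC in genes with 4 to 7 peaks. Gaps of at most 1000 bp made up 61.4% of gaps for shALKBH5 and 61.8% for shNC, against 53.6% for shALKBH5 and 53.9% for shNC in genes with 4 to 7 peaks. The genes were chosen on their number of peaks, and how far that number bears on these gaps was not tested. Runs of at least 4 stretches, each within 1000 bp of the next, were present in 84 genes for shALKBH5 and 86 for shNC. Runs of at least 8 were present in 8 genes for shALKBH5 and 10 for shNC. AHNAK held the longest, with 14 stretches for shALKBH5 and 13 for shNC, each run over 10.4 kb. AFAP1-AS1, a long noncoding RNA read from the opposite strand of AFAP1, had runs of 9 stretches for shALKBH5 and 10 for shNC over 6.67 kb. PLEC, which encodes the cytoskeletal linker plectin, had runs of 10 for shALKBH5 and 11 for shNC. The gaps include introns, so that they are distances on the genome and not on the RNA.

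**Figure D2:**
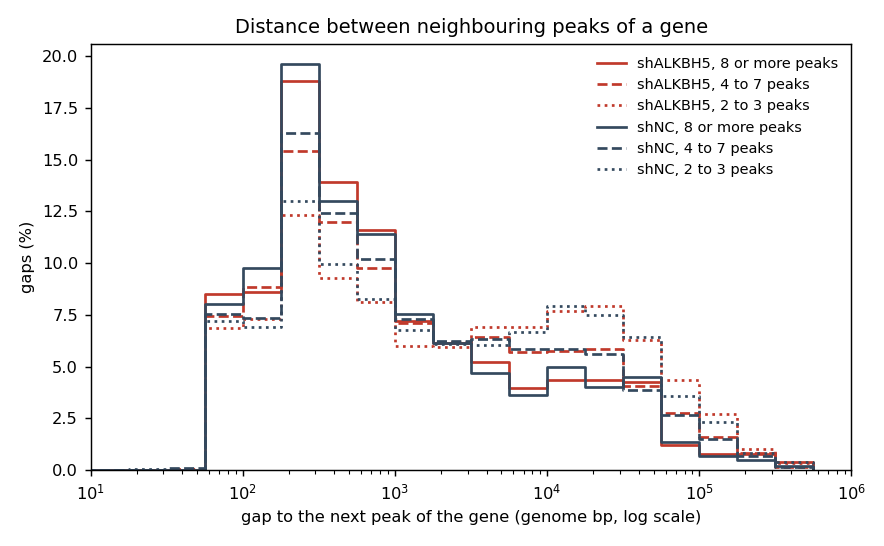
Distribution of the gap between neighbouring stretches of a gene in genome bp (horizontal log axis) as a share of all gaps of that list and gene class (vertical axis). Solid lines are the genes with 8 or more peaks, dashed lines genes with 4 to 7 and dotted lines genes with 2 to 3, in red for shALKBH5 and dark blue for shNC. The solid lines of the 2 lists run together and are highest between 100 and 1000 bp.

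A peak was given a partner when its bases overlapped a peak of the other list by at least 1 base. In the shALKBH5 list 161 of the 1235 peaks of these genes had no partner (13.0%, exact 95% interval 11.2 to 15.0%), where all shALKBH5 peaks had 19.8%. In the shNC list 121 of 1196 had no partner (10.1%, 8.47 to 12%), where all shNC peaks had 12.6%. In both lists the share lay below that over all peaks, and for shALKBH5 it also lay below the 16.3% of genes with 4 to 7 peaks, which had 11.3% for shNC. The intervals cover counting error over peaks only, and peaks of a gene are not independent. A gene could enter through peaks of 1 list alone, so partner status is tied to the selection. The order of the lists turned when the weakest shALKBH5 peaks were dropped until both lists were equally long: 8.54% of shALKBH5 peaks and 12.9% of shNC peaks of such genes then had no partner. All peaks had 15.1% for shALKBH5 and 15.2% for shNC in that setting. When an overlap of 50% of both peaks was required, 27% of shALKBH5 peaks of the set had no partner, below the 29.1% of all shALKBH5 peaks, but 24.8% of shNC peaks had none, above the 22.2% of all shNC peaks.

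Whether a peak had a partner went with its p-value. The median log10 p of peaks without a partner was -4.12 for shALKBH5 and -4.38 for shNC in the authors' deposited tables, against -20.9 for shALKBH5 and -18.8 for shNC with a partner. Within the strongest quartile of p of each list, none of the 261 shALKBH5 and 225 shNC peaks of these genes lacked a partner, which allows a share of up to 1.40% for shALKBH5 and 1.63% for shNC. Within the weakest quartile, 123 of 285 shALKBH5 peaks (43.2%, 37.3 to 49.1%) and 86 of 274 shNC peaks (31.4%, 25.9 to 37.2%) lacked one. The weakest peaks of genes with 1 peak lacked one in 63.0% for shALKBH5 and 44.5% for shNC. In the shALKBH5 list the genes with many peaks had the lowest share in each of the 3 weaker quartiles, but their intervals overlapped those of genes with 4 to 7 peaks in every quartile. In the third quartile of the shNC list all 4 classes of genes lay between 10.2 and 12.7%. The abundance of the RNAs was not measured, and its part in these shares was not tested.

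**Figure D3:**
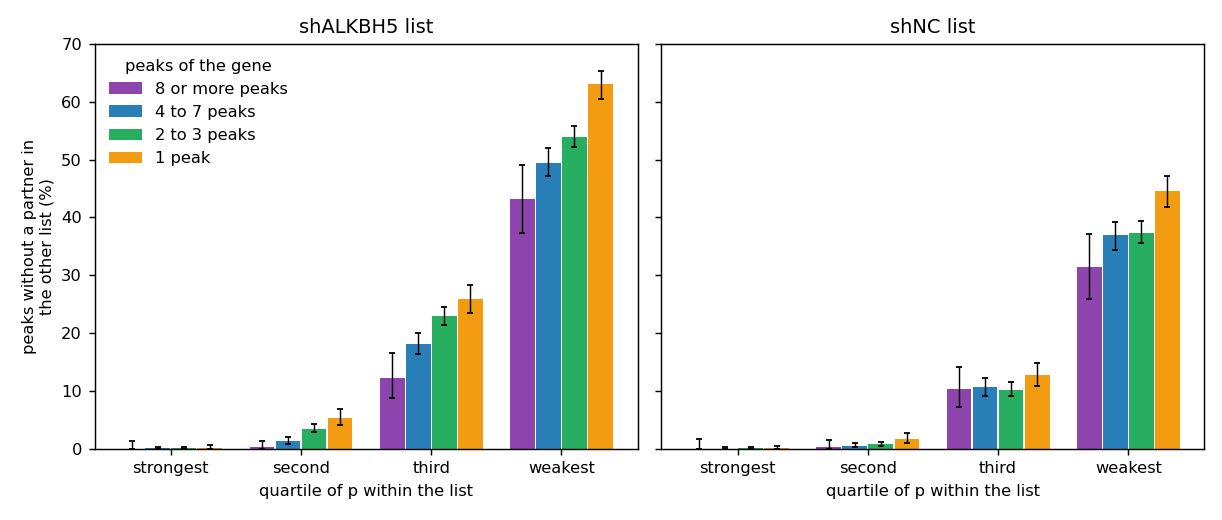
Share of peaks without a partner in the other list (vertical axis, percent) by quartile of p within the list (horizontal axis) and by the number of peaks of the gene (colours), for the shALKBH5 list on the left and the shNC list on the right. Error bars are exact 95% intervals over peaks. Bars for genes with 8 or more peaks reach 43.2% for shALKBH5 and 31.4% for shNC in the weakest quartile and stay near 0 in the 2 stronger quartiles.

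To compare sites rather than peaks, peaks of a gene in both lists were chained into 1 site wherever they shared a base. The 137 genes had 1251 sites, of which 975 (77.9%) held peaks of both lists, 156 (12.5%) of shALKBH5 alone and 120 (9.59%) of shNC alone. Over all other genes the shares were 70% for both, 19% for shALKBH5 alone and 11% for shNC alone. A gene had a median of 9 sites, 7 of them in both lists, and 53 genes had 8 or more sites in both. In 29 genes every site was in both lists. Of the 975 shared sites, 838 (85.9%) had 1 peak in each list, 52 (5.33%) had more peaks for shALKBH5 and 59 (6.05%) more for shNC. Over the shared sites of all other genes, 93.1% had 1 peak in each list, 3.09% more for shALKBH5 and 2.65% more for shNC. Other genes with a single peak per list can only have shared sites with 1 peak in each. Cutting a site into several peaks also adds to the number on which the 137 genes were chosen, so these shares are tied to the selection. A difference in the number of peaks can therefore come from sites of 1 list alone or from a different cutting of the same stretch. ANKRD11, a chromatin regulator gene, is an example: its 14 shALKBH5 and 11 shNC peaks formed 10 sites, 9 of them in both lists. One ANKRD11 peak of shNC, from 89282790 to 89284977 on chromosome 16 (hg38), overlapped 3 peaks of shALKBH5. IGSF10, an immunoglobulin superfamily gene, had 9 shALKBH5 and 11 shNC peaks, and all of its 9 sites were in both lists.

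**Figure D4:**
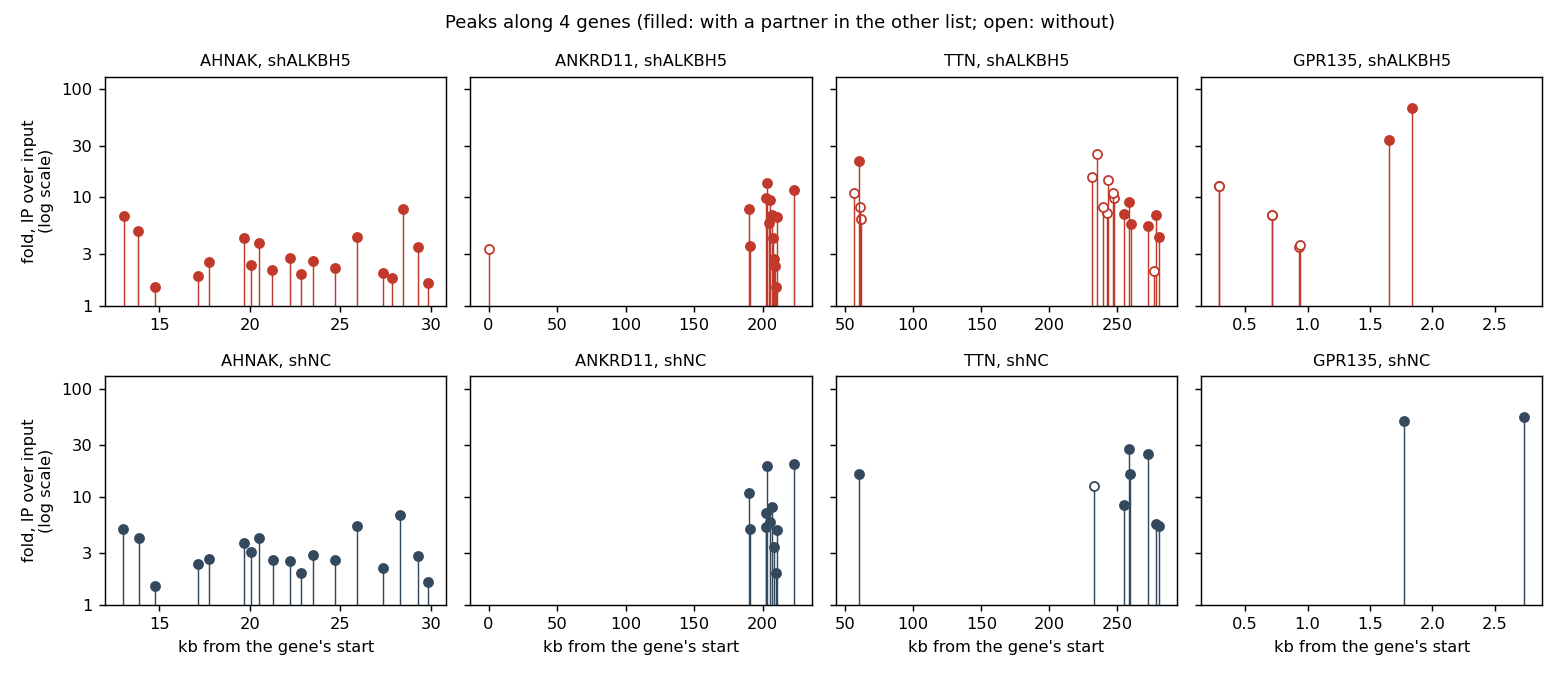
Fold of IP over input of each peak (vertical log axis, the authors' values) by its distance from the RefSeq gene start in kb (horizontal axis), for 4 genes, with shALKBH5 above shNC. Filled points have a partner in the other list and open points have none. All AHNAK points are filled, the only open ANKRD11 point is the shALKBH5 peak at the gene start, TTN has 11 open shALKBH5 points and 1 open shNC point, and GPR135 has 6 open shALKBH5 points, some on top of each other.

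Over all genes with a peak, 1.07% were in the set, and the role lists were written with earlier results of these data known. By role, the giant cytoskeletal and scaffold proteins were AHNAK, DST, MACF1, PLEC and GOLGB1, which were 5 of the 18 listed genes with a peak. They held 72 shALKBH5 and 69 shNC peaks. In each list 7 of them had no partner, 9.72% for shALKBH5 (4 to 19%; 13.0% over the set and 19.8% over all peaks) and 10.1% for shNC (4.18 to 19.8%; 10.1% over the set and 12.6% over all peaks). All 19 shALKBH5 and all 18 shNC peaks of AHNAK had a partner. In the authors' deposited tables the AHNAK folds lay between 1.48 and 7.80 with a median of 2.54 for shALKBH5 and between 1.48 and 6.83 with a median of 2.73 for shNC. Its strongest peak lay at the same site in both lists, and the authors' deposited tables give it log10 p-values of -861 (shALKBH5) and -919 (shNC). DST, by contrast, had 4 of 16 shALKBH5 and 3 of 14 shNC peaks without a partner. GOLGB1, which encodes the Golgi tether giantin, had 1 of 10 shALKBH5 and 3 of 12 shNC peaks without one.

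Of the 54 chromatin and transcription genes with a peak, 10 were among the 137, with 93 shALKBH5 and 97 shNC peaks. For shALKBH5 5 of these (5.38%, 1.77 to 12.1%) had no partner, against 19.8% of all shALKBH5 peaks and 13.0% of the set, and for shNC 9 (9.28%, 4.33 to 16.9%) had none, against 12.6% of all shNC peaks and 10.1% of the set. Among them were KMT2A, KMT2C, KMT2D, SETD2, ASH1L, ARID1B, BPTF, MGA and TET3. SETD2, which places the H3K36 trimethyl mark, had 9 peaks in each list, all of which paired at 9 sites. KMT2D and KMT2C, of the family that methylates H3K4, also had no peak without a partner, with 14 shALKBH5 and 12 shNC peaks for KMT2D and 11 in each list for KMT2C. KMT2A, of the same family, had 10 shALKBH5 and 13 shNC peaks, of which 1 shALKBH5 and 3 shNC peaks had no partner.

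The mitosis and centrosome list gave 7 of 19 genes with a peak, with 72 peaks in each list. For shALKBH5 8 of these had no partner (11.1%, 4.92 to 20.7%), where all shALKBH5 peaks had 19.8%. For shNC 5 had none (6.94%, 2.29 to 15.5%), where all shNC peaks had 12.6%. CENPE, a kinetochore motor gene, had 11 peaks in each list, of which 3 in each had no partner. CENPF had 14 shALKBH5 and 12 shNC peaks, of which 1 shALKBH5 peak had no partner. MKI67, which encodes the proliferation marker Ki-67, had 9 shALKBH5 and 10 shNC peaks, and every one had a partner. CEP350, a centrosome protein gene, had 12 shALKBH5 and 11 shNC peaks. The RNA processing and nuclear pore list gave 6 of 26 genes with a peak, namely RANBP2, SON, SRRM2, PRRC2B, PRRC2C and TNRC6C, with 48 shALKBH5 and 49 shNC peaks. No partner was found for 5 of these for shALKBH5 (10.4%, 3.47 to 22.7%) and for 6 for shNC (12.2%, 4.63 to 24.8%). SON, a splicing cofactor gene, had 9 shALKBH5 and 11 shNC peaks. One SON peak of shALKBH5, from 33552925 to 33554182 on chromosome 21 (hg38), overlapped 3 shNC peaks.

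The genome maintenance list gave BRCA2, RIF1 and SLX4, 3 of 19 genes with a peak, with 26 shALKBH5 and 19 shNC peaks. For shALKBH5 6 of the 26 had no partner (23.1%, 8.97 to 43.6%), where all shALKBH5 peaks had 19.8%, and for shNC 0 of the 19 had none (0 to 17.6%), where all shNC peaks had 12.6%. Both intervals hold the share over all peaks. The 6 were 3 in BRCA2, 2 in RIF1 and 1 in SLX4. BRCA2, of homologous recombination repair, had 8 shALKBH5 and 5 shNC peaks. The receptor and adaptor list gave APC, CELSR1, LRRK1 and IGF1R, 4 of 21 genes with a peak, with 31 shALKBH5 and 30 shNC peaks. No partner was found for 4 of these for shALKBH5 (12.9%, 3.63 to 29.8%) and for 2 for shNC (6.67%, 0.818 to 22.1%). APC, a negative regulator of Wnt signalling, had 8 peaks in each list, all with a partner. IGF1R, the receptor of insulin-like growth factor, had 5 shALKBH5 and 8 shNC peaks, of which 2 shNC peaks had no partner. The zinc finger and homeobox list gave HIVEP1, HIVEP3 and ZNF407, 3 of 20 genes with a peak, with 22 shALKBH5 and 26 shNC peaks. Of these, 2 for shALKBH5 (9.09%, 1.12 to 29.2%) and 4 for shNC (15.4%, 4.36 to 34.9%) had no partner. RNF213, a giant ubiquitin ligase gene with 12 shALKBH5 and 13 shNC peaks, was the only one of 19 ubiquitin ligase and deubiquitinase genes. In all, 39 of the 137 genes were on one of the 8 lists and 98 on none.

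All 6 genes whose counts differed by 4 or more had more peaks for shALKBH5: TTN, GPR135, GARS-DT, KLC1 and the transcribed pseudogenes GVINP1 and ZNF252P. TTN, which encodes the muscle protein titin, had 18 shALKBH5 and 8 shNC peaks, and 11 shALKBH5 peaks and 1 shNC peak had no partner. The TTN peaks without a partner have folds from 2.10 up to 25.3 and log10 p-values between -6.68 and -2.53 (shALKBH5, the authors' deposited table). No TTN peak passed a log10 p of -16.5 for shALKBH5 or -9.11 for shNC. GPR135, an orphan G protein-coupled receptor gene, had 8 shALKBH5 and 2 shNC peaks, but these were 4 shALKBH5 stretches and 1 shNC stretch. The strongest GPR135 peak, which had a partner, has fold 67.9 and log10 p -41.6 (shALKBH5, the authors' deposited table). GARS-DT, a divergent transcript, had 8 shALKBH5 and 3 shNC peaks, and all 3 of its shNC peaks had a partner. KLC1, a kinesin light chain gene, had 10 shALKBH5 and 6 shNC peaks, several of which lay beyond the RefSeq end of KLC1 and over XRCC3 on the other strand. GVINP1 had 16 shALKBH5 and 9 shNC peaks, which were 8 shALKBH5 and 5 shNC stretches, and ZNF252P had 9 shALKBH5 and 5 shNC peaks. With TTN left out, 12.3% of shALKBH5 peaks and 10.1% of shNC peaks had no partner.

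The largest surpluses of shNC peaks were smaller, at 3 peaks. KMT2A had 10 shALKBH5 and 13 shNC peaks. DNASE1, an endonuclease gene, had 8 shALKBH5 and 11 shNC peaks, of which 2 shALKBH5 and 5 shNC peaks had no partner. SAMD9, an antiviral and growth-suppressing gene, had 7 shALKBH5 and 10 shNC peaks in a run over 6.14 kb in both lists. The 2 SAMD9 peaks of shNC without a partner were its weakest, at log10 p -4.39 and -4.15 (the authors' deposited table). DIDO1 had 6 shALKBH5 and 9 shNC peaks, but 6 of its 7 sites were in both lists. LCOR, a nuclear receptor corepressor gene, had 6 shALKBH5 and 9 shNC peaks, and 4 of its 9 sites were of shNC alone.

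**Figure D5:**
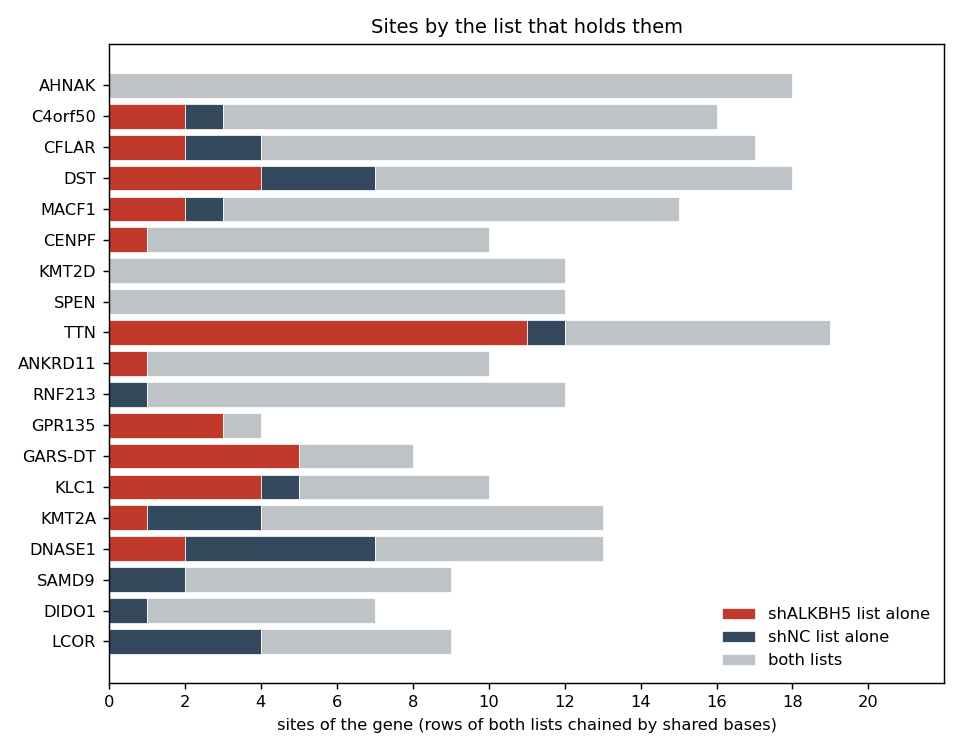
Number of sites of genes with the most peaks or the largest surplus (horizontal axis), split into sites of the shALKBH5 list alone (red), of the shNC list alone (dark blue) and of both (grey). Every site of AHNAK, KMT2D and SPEN is in both lists, while TTN has 11 sites of shALKBH5 alone against 7 in both.

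The strongest peaks of the set by p were shared and ranked alike. The first 4 were the same in both lists, in the order IGSF10, AFAP1-AS1, ZNF263 and CHST12. The IGSF10 peak, on chromosome 3 from 151437478 to 151440625 (hg38) for shALKBH5, has log10 p -1900 and fold 16.3 for shALKBH5, against -1250 and 16.7 for shNC (the authors' deposited tables). AFAP1-AS1 had -1260 for shALKBH5 and -1120 for shNC in the authors' deposited tables. ZNF263, a zinc finger gene, had -1080 for shALKBH5 and -1040 for shNC, and CHST12, a chondroitin sulfotransferase gene, had -926 for shALKBH5 and -1010 for shNC. Peaks of the highest fold were other ones. MC1R, the melanocortin receptor gene, had the highest for shALKBH5, at 124 in the authors' deposited table, in a peak that shared bases with peaks of 2 other genes. ALG11, a mannosyltransferase gene, had the highest for shNC, at 121 in the authors' deposited table. MBD5, a methyl-CpG-binding domain gene, was the only gene among the first 5 by fold in both lists, with 80.5 for shALKBH5 and 74.0 for shNC in the authors' deposited tables, at different sites.

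Within a gene the peaks differed widely in fold. The highest fold of a gene was a median of 7.42 times its lowest for shALKBH5 and 7.11 times for shNC. The peak with the strongest p lay at the same site in both lists in 105 of the 137 genes (76.6%, 68.7 to 83.4%), and the peak with the highest fold in 68 (49.6%, 41.0 to 58.3%). The shares were 85.0% by p and 58.3% by fold in genes with 4 to 7 peaks, which have fewer peaks to rank. Whether that number bears on the shares was not tested. Over all peaks of the set the median fold was 6.11 for shALKBH5 and 6.08 for shNC in the authors' deposited tables, against 6.64 over all shALKBH5 and 6.54 over all shNC peaks.

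The peaks without a partner were mostly weak, and the strongest of them by p were as follows. For shALKBH5 they were in ARID1B (log10 p -24.3), ANKRD11 (-14.9), CSNK1D (-11.3), CENPE (-11.1) and NQO2 (-10.6), per the authors' deposited table. The NQO2 peak lay outside the RefSeq span of NQO2, as did 7 of its 8 shALKBH5 and 6 of its 8 shNC peaks. The ANKRD11 peak had a fold of 3.35 and lay at the gene start, far upstream of the others, as the plot along 4 genes shows. For shNC they included peaks in MAP1B (-17.8), ANKRD12 (-14.8), CENPE (-13.1) and SRRM2 (-12.4), per the authors' deposited table. MAP1B, which encodes a microtubule-associated protein, had 6 shALKBH5 peaks, all with a partner, and 9 shNC peaks, 4 of them without one.

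Most peaks of these genes lay inside the gene, away from both ends. Of the peaks within the RefSeq span, 87.0% for shALKBH5 and 87.9% for shNC were neither at the start (5′ edge less than 500 bp from it) nor at the end (3′ edge less than 1000 bp from it), against 63.5% of all shALKBH5 and 65.6% of all shNC peaks. Start peaks made up 57 of 1178 (4.84%, 3.69 to 6.22%) for shALKBH5 and 43 of 1138 (3.78%, 2.75 to 5.06%) for shNC. Over all peaks they made up 14.5% for shALKBH5 and 11.4% for shNC. End peaks made up 8.15% for shALKBH5 and 8.35% for shNC, against 22.1% of all shALKBH5 and 23% of all shNC peaks. A gene has 1 start however many peaks it has, so genes were also counted. Of the 137 genes, 47 had a start peak for shALKBH5 (34.3%) and 36 for shNC (26.3%), close to the 35.3% for shALKBH5 and 25.3% for shNC of genes with 4 to 7 peaks. An end peak was present in 73 genes (53.3%) for shALKBH5 and 71 (51.8%) for shNC, against 49.2% for shALKBH5 and 49.4% for shNC of genes with 4 to 7 peaks. Among peaks without a partner, 13 of 155 shALKBH5 peaks (8.39%, 4.54 to 13.9%) and 1 of 114 shNC peaks (0.877%, 0.0222 to 4.79%) were at a start. Over all peaks without a partner the share was 27.1% for shALKBH5 and 12.7% for shNC. The 13 lay in 12 genes, with 2 overlapping ones in GPR135, and the shNC one was in IGF1R. The last of 5 equal parts of the gene span held 48.8% of the peaks for shALKBH5 and 49.6% for shNC, near the 50% of all shALKBH5 and 52.2% of all shNC peaks.

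Some peaks could belong to another gene. In the shALKBH5 list 130 peaks of the set (10.5%) shared a base with a peak of another gene, as did 115 (9.62%) in the shNC list, against 15.3% of shALKBH5 and 15.4% of shNC peaks of other genes. Of these, 82 shALKBH5 and 70 shNC peaks shared it with a gene on the other strand, and the labels do not say whether strand was kept, so these cannot be told apart. ZBED6 and ZC3H11A have the same RefSeq span, and each of their 9 shALKBH5 and 8 shNC peaks shared bases with a peak listed under the other name. IL16, a cytokine precursor gene, shared 6 of 11 shALKBH5 and 7 of 9 shNC peaks with STARD5 on the other strand. TMEM51-AS1 shared 7 of 9 shALKBH5 and 6 of 8 shNC peaks with KAZN on the other strand. A further 57 shALKBH5 peaks (4.62%) and 58 shNC peaks (4.85%), in 18 genes, lay outside the RefSeq span of the gene they are listed under, against 2.39% of all shALKBH5 and 2.43% of all shNC peaks on matched genes. Besides NQO2 and KLC1, ZNF814 had most of its peaks there, 7 of 9 for shALKBH5 and 6 of 8 for shNC. So did CLK3, with 5 of 8 for shALKBH5 and 4 of 6 for shNC. For shNC alone, ZNF468 with 6 of 9 and PAX8-AS1 with 5 of 9 also had most of their peaks there. Altogether 87 genes shared no peak with another gene, and 11 shared 50% or more of their peaks in a list.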

How the data were processed

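RPMI-8226 libraries of shALKBH5 and shNC cells, 1 IP and 1 input each, were analysed from 1 peak list per condition. HOMER 4.9.1, fastp 0.19.11, BWA 0.7.12 and build hg38 are listed, without roles, in the submitters' processing notes, and no source used here names the peak caller. Per the file headers, the authors gave each peak a fold enrichment, the ratio of IP over input, whose normalization is not stated. The authors' deposited log10 p column was read as a score with no fixed range, and the authors' deposited score column holds the p-value itself.

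From these, peaks were counted per Ensembl gene, and genes with 8 or more in a list were kept. Starts in the lists were taken to count from 0, and 1 was added, which no source used here states. Start plus 1 was the RefSeq gene start in 111 plus-strand peaks, and the start itself was in 25. A partner shares at least 1 block base, strand ignored. Positions used RefSeq spans (GRCh38.p14), matched for all 137 genes and for 84.8% of all genes. Intervals are exact (Clopper-Pearson) 95% intervals and cover counting error only. The log10 p cell was a spreadsheet error in 1 shALKBH5 and 2 shNC peaks, none of the set, and was ranked strongest. Python 3.11.15, pandas 2.3.3, numpy 2.4.6, SciPy 1.17.1 and matplotlib 3.10.9 were used, and the functions were tested on simulated data.

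The genes, role lists and markers were chosen with earlier results of these data known. Genes were named by rule: the 12 with most peaks, the 5 largest surpluses each way, the 5 peaks per list highest by fold, by p and by p without a partner, and up to 4 genes per role list. Rankings skipped immunoglobulin genes, pseudogenes and unnamed loci. Some genes that the rule names are not reported here. Other named genes, among them those in the paragraphs on sequences, separateness and shared sites, were chosen after their values were seen. Alternatives were other minimum counts, merging, a stricter fold, lists of equal length, other partner rules, narrower windows and ranking by p.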

Additional observations from a re-analysis of the deposited data

How the results depend on the processing

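Merging peaks that share a base left 129 genes, merging within 100 bp 101, a fold of at least 2 times the lowest 113 and lists of equal length 125, all among the 137. A minimum of 10 peaks left 44 genes (510 shALKBH5 and 488 shNC peaks), and 8 peaks in both lists left 76 (781 shALKBH5 and 760 shNC peaks). The share of shALKBH5 peaks without a partner was 9.6% with 8 peaks in both lists, 8.54% with lists of equal length, 27% with reciprocal overlap of 50%, 9.96% with a partner within 200 bp and 10.8% without the 5 genes with most such peaks (TTN, GVINP1, GPR135, GARS-DT and ZNF252P). The shNC share was 8.4% with a minimum of 10 peaks, 7.5% with 8 in both lists, 12.4% with the stricter fold, 12.9% with lists of equal length, 24.8% with reciprocal overlap and 6.94% within 200 bp. Under reciprocal overlap all peaks had 29.1% for shALKBH5 and 22.2% for shNC, so the shNC share of the set was then above that of all shNC peaks. Windows of 200 and 500 bp gave 3.14% for shALKBH5 and 2.2% for shNC at starts, and 4.67% for shALKBH5 and 4.75% for shNC at ends. Ranked by p, 105 genes had their strongest site in common, against 68 by fold. The last 2 changes follow from the narrower windows and the other ranking. By their rules, reciprocal overlap can only raise a share without a partner, and a partner within 200 bp can only lower it. The 5 genes left out were picked for having most peaks without a partner. The cause of the other changes was not tested. Leaving out TTN or those 5 genes was added after seeing the data.

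Of 47 alternatives computed, 25 stayed within 1.5 times a count or within the interval of a share. Motif shares over peaks and transcript models were not run, since neither a genome sequence nor transcripts were used here. No paired analysis was possible because each condition has 1 list. Without read counts, weak peaks near the calling limit cannot be told from missing ones.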

Other observations

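Of the genes with many peaks, chromosome 16 held 13 (9.49% of the set, against 5.45% of all genes with a peak), and 6 lay between 85 and 90 Mb, where 59 genes had a peak: ACSF3, ANKRD11, CENPBD1, KLHDC4, MC1R and SPG7. SPG7, a mitochondrial protease gene, had 13 shALKBH5 and 11 shNC peaks there. Once peaks sharing a base were joined, CENPBD1 and MC1R had fewer than 8 stretches in each list. Chromosome 7 held 12 (8.76%, against 4.9% of genes) and chromosome 15 held 11 (8.03%, against 3.81%). Chromosome 1 held 16 (11.7%, against 10.1%) and chromosome 2 held 11 (8.03%, against 6.43%). Where all genes with a peak had 1.07% in the set, the X chromosome had 0 of 369, and chromosome 19 had 3 of 973 (0.308%). Of 430 genes with a ZNF symbol and a peak, 9 (2.09%) were in the set. These counts were chosen after their values were seen, and gene length and RNA abundance were not held equal.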
